A study of Homo sapiens with 8 samples.

Results

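The subject is the set of NFYC peaks of RH4 cells that had no NFYB peak under them, 690 of the 3760 peaks in the RH4 NFYC list. A peak was a member when it overlapped no peak of the RH4 NFYB list by even 1 bp, so the members were chosen by the called positions in these 2 RH4 lists, and the size of the set is a description. The remaining 3070 NFYC peaks had NFYB and are called shared here. Peaks were mapped by CUT&RUN, in which an antibody directs a nuclease to a protein on chromatin and the released DNA is sequenced. RH4 and RH30 are established rhabdomyosarcoma lines, labelled PAX3-FOXO1+ throughout. RH4 cells were uninfected and untreated, with 1 library each for NFYC, NFYB and IgG. RH30 cells, engineered with an inducible cytosine base editor, were transduced with sgCCAAT2a or sgCCAAT2b, which target a CCAAT motif of the PAX3 promoter, or with the control guides sgCtrl1 or sgCtrl2. All RH30 cells were selected with blasticidin, given rapamycin to start editing and harvested 8 days later; the extent of editing was not analysed here. The labels give 1 NFYB library per guide and an IgG library for sgCtrl1, and no IgG library was used here. In the labels, RH4 stands as source name and as cell line of the RH30 libraries too; the name RH30 is from their titles, and which line they come from was not tested.

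NF-Y is a transcription factor of the subunits NFYA, NFYB and NFYC that binds the sequence CCAAT, typically a short way upstream of the start of a gene. NFYB and NFYC pair through histone-like folds, and NFYA then joins the pair and makes the contact with CCAAT. NF-Y is known for promoters of cell cycle, endoplasmic reticulum and lipid synthesis genes. An NFYC peak without NFYB is a difference between 2 lists, each from 1 library of 1 antibody. The lists hold positions and no peak heights, and the depth of both RH4 libraries is unknown. Weaker NFYB signal under a member, if any, is not visible in these lists.

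The sequences below show what lay under members at gene starts. They are the parts upstream of the annotated start of 10 member peaks that lay wholly inside a promoter window, given 5' to 3' on the strand of the gene, with CCAAT or its reverse complement ATTGG in capitals. The first 4 overlapped an NFYB peak in all 4 RH30 lists, FOXO1 in 1, and the last 5 in none. They are from RefSeq, build GRCh38.p14.
GPR89A (chr1:145607842-145607987, plus strand): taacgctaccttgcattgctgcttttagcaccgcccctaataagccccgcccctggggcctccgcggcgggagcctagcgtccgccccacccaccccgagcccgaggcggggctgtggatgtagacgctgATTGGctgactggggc
GTF2IRD1 (chr7:74453715-74453873, plus strand): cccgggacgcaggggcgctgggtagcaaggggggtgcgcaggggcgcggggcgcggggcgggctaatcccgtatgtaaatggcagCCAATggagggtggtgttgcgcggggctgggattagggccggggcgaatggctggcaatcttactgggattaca
ZNF608 (chr5:124748825-124748976, minus strand): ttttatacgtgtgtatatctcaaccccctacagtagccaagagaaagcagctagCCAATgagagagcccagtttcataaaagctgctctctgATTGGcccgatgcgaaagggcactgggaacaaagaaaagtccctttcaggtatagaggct
FANCM (chr14:45135804-45135929, plus strand): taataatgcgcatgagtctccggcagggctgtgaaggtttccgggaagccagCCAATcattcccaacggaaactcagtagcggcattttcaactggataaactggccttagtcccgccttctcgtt
FOXO1 (chr13:40666642-40666762, minus strand): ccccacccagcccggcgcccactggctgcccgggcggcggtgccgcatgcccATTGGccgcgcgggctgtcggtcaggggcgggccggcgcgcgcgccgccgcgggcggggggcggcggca
PLK1 (chr16:23678761-23678836, plus strand): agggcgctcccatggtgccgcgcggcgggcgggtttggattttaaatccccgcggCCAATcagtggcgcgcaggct
GNA11 (chr19:3094147-3094361, plus strand): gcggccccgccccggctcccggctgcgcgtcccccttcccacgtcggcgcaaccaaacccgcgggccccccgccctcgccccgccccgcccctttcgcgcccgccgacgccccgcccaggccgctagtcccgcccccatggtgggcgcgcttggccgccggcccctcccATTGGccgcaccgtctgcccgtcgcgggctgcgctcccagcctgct
RLIM (chrX:74614625-74614782, minus strand): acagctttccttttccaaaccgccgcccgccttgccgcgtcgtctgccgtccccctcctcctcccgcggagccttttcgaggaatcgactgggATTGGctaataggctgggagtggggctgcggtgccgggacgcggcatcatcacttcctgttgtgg
MAN1B1 (chr9:137086795-137086984, plus strand): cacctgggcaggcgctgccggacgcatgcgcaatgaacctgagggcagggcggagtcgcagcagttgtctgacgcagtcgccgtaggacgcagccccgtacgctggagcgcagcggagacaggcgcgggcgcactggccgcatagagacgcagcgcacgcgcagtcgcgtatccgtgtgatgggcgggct
POLD1 (chr19:50384126-50384295, plus strand): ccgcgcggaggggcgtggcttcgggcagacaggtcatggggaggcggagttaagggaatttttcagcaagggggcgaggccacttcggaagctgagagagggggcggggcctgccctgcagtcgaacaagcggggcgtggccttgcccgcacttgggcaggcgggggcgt
The 4 peaks found in every RH30 list each held the motif, and ZNF608 held it on both strands. MAN1B1 and POLD1, which had no RH30 peak, held none, while PLK1, GNA11 and RLIM held 1 each without an RH30 peak.

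The members were narrow. Their median width was 98 bp, with quartiles of 77 and 126 bp and a widest peak of 317 bp. Shared NFYC peaks had a median of 220 bp, with quartiles of 153 and 301 bp and a widest peak of 996 bp. The narrowest width in the NFYC list was 76 bp, and 171 members (24.8%, exact 95% interval 21.6 to 28.2%) had exactly that width, against 116 shared peaks (3.78%, 3.13 to 4.51%). Width and membership went together across the whole NFYC list: of the 76 bp peaks 59.6% lacked NFYB, of those of 101 to 150 bp 36.8%, of those of 151 to 200 bp 11.9%, and of those over 200 bp 0.793% (14 of 1766). A wide peak is more apt to meet another peak, so width is tied to the rule and was not tested. Of the 690 members, 28 (4.06%) lay within 100 bp of an RH4 NFYB peak and 39 (5.65%) within 200 bp. How far the tie to the rule accounts for the fall in the share without NFYB was not tested. RH4 NFYB peaks without NFYC, 354 of 3243, had a median width of 234 bp and none was narrower than 210 bp. Their lower quartile was 210 bp too, so these peaks also crowded at their narrowest width.

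**Figure D1:**
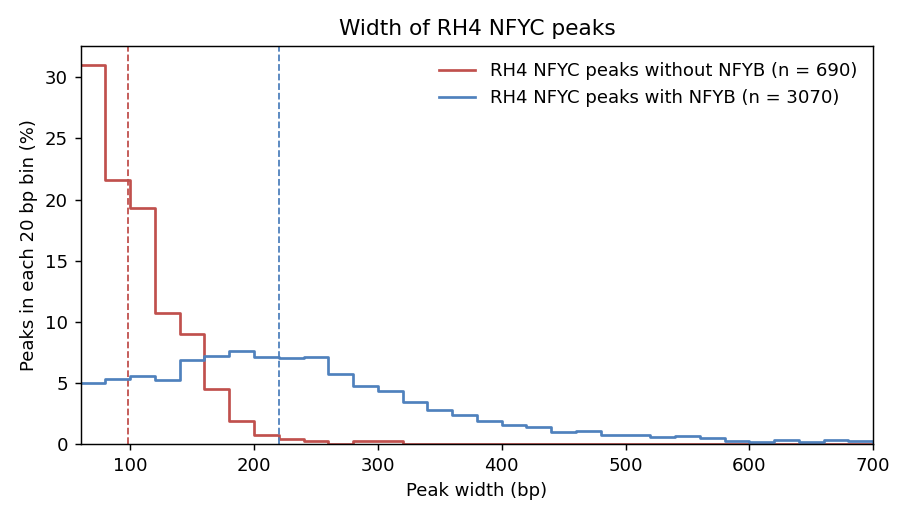
Percent of peaks in each 20 bp bin of width (x axis, bp, cut at 700 bp) for RH4 NFYC peaks without NFYB and with NFYB; dashed lines mark the medians of 98 and 220 bp. The members crowd at the narrow end of the list.

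Most members stood far from any RH4 NFYB peak. The median gap to the nearest RH4 NFYB peak was 70990 bp. Only 28 members (4.06%, 2.71 to 5.81%) lay within 100 bp of one and 63 (9.13%, 7.09 to 11.5%) within 1000 bp. Of the 63, 45 had beside them an NFYB peak that was itself overlapped by another NFYC peak, and 18 had one with no NFYC peak. PDIA3, a disulfide isomerase of the endoplasmic reticulum, is such a case: its NFYC peak at chr15:43746272-43746349 and its NFYB peak at chr15:43746414-43746681 lay 64 bp apart, and neither overlapped the other subunit. The members just inside the rule were the peaks at PIM3, a kinase, 1 bp from an NFYB peak, at MAN2A1, a Golgi mannosidase, 4 bp away, on chromosome 19 off any gene end, 6 bp away, at ENO1, a glycolytic enolase, 8 bp away, and at CAPZB, an actin capping subunit, 9 bp away. Just outside it were a chromosome 19 peak with an overlap of 1 bp and those at ZNF726 with 2 bp, LRIG2 with 6 bp, PDZD8 with 8 bp and ZNF491 with 10 bp. With so few members at the edge, requiring a gap of more than 1000 bp left 627.

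The RH30 NFYB lists, which did not choose the members, were used to ask how often NFYB was called at the same place in libraries titled as another rhabdomyosarcoma line. An NFYB peak of at least 1 RH30 list overlapped 337 of the 690 members (48.8%, 45.1 to 52.6%), against 2564 of the 3070 shared peaks (83.5%, 82.2 to 84.8%) and 77.2% of all 3760 NFYC peaks. The other 353 members overlapped none. For 305 (44.2%, 40.5 to 48.0%) no RH30 peak lay within 1000 bp either, against 384 shared peaks (12.5%, 11.4 to 13.7%). For 292 of the 305 members no RH4 NFYB peak lay within 1000 bp. All 4 RH30 lists had a peak at 71 members (10.3%, 8.12 to 12.8%) and at 1438 shared peaks (46.8%, 45.1 to 48.6%), where all NFYC peaks together gave 40.1%. The 4 RH30 lists were called against the same input, so a peak in several of them is not independent evidence. Each antibody and guide has 1 library, so no test between groups was run; the intervals cover the counting of peaks only.

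By list, members overlapped a peak of sgCCAAT2a in 116 cases (16.8%, 14.1 to 19.8%), of sgCCAAT2b in 137 (19.9%, 16.9 to 23.0%), of sgCtrl1 in 209 (30.3%, 26.9 to 33.9%) and of sgCtrl2 in 257 (37.2%, 33.6 to 41.0%). Shared peaks gave 56.8%, 58.8%, 72.5% and 74.0% in the same order, and all NFYC peaks 49.4%, 51.6%, 64.8% and 67.3%. The lists differ in length, with 2451, 2558, 4025 and 6687 peaks, and in median peak width, with 153, 163, 189 and 197 bp. Per the file headers they differ in depth, with 21.2 M, 28.2 M, 13.9 M and 10.5 M tags. They also differ there in the percent of tags in peaks, with 1.22%, 1.46%, 2.40% and 3.10%. The part of guide, depth, length, peak width and tags in peaks in these shares cannot be told apart. The sgCtrl2 list alone accounted for 95 members (13.8%, 11.3 to 16.6%) and 202 shared peaks (6.58%, 5.73 to 7.52%). Without that list 242 members (35.1%, 31.5 to 38.8%) and 2362 shared peaks (76.9%, 75.4 to 78.4%) overlapped a peak. Both controls had a peak at 154 members (22.3%) and at 2007 shared peaks (65.4%). An edited list without either control had one at 25 members (3.62%) and at 72 shared peaks (2.35%). RH4 NFYB peaks without NFYC gave 9.04% with sgCCAAT2a and 8.47% with sgCCAAT2b, below the intervals of the members, and 28.0% with sgCtrl1 and 38.1% with sgCtrl2, within them.

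**Figure D2:**
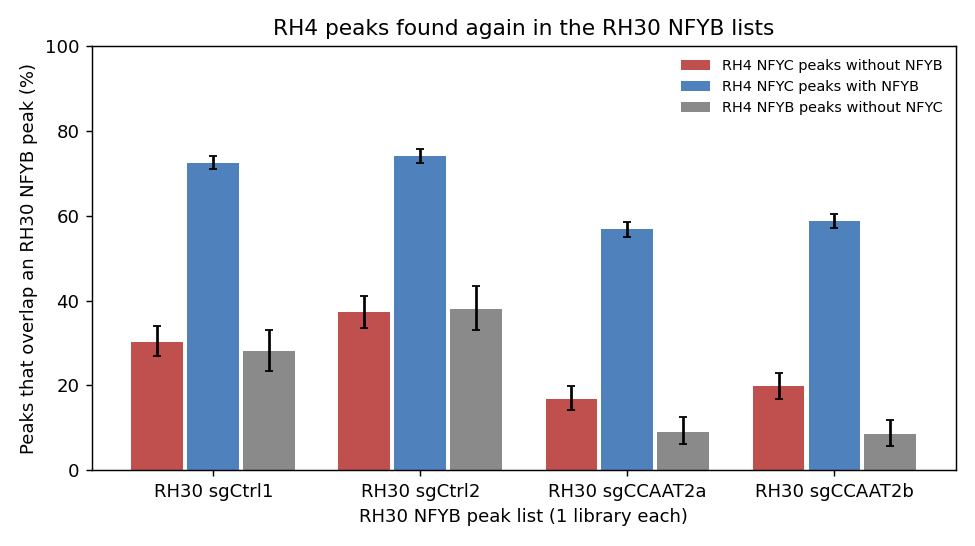
Percent of peaks that overlap an NFYB peak of each RH30 list (y axis) for RH4 NFYC peaks without NFYB, NFYC peaks with NFYB and NFYB peaks without NFYC; error bars are exact 95% intervals of the peak counts. In each list the members lie below the shared NFYC peaks, at 16.8 to 37.2% against 56.8 to 74.0%.

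Wider members overlapped an RH30 peak more often, and in each class of width the share was lower for members than for shared peaks. Among 76 bp peaks 63 of 171 members (36.8%, 29.6 to 44.5%) overlapped an RH30 peak, against 55 of 116 shared peaks (47.4%, 38.1 to 56.9%), and these intervals overlap. From 101 to 150 bp it was 128 of 232 members (55.2%, 48.5 to 61.7%) against 285 of 398 shared peaks (71.6%, 66.9 to 76.0%), with intervals that do not overlap. From 151 to 200 bp it was 56 of 81 members (69.1%, 57.9 to 78.9%) against 496 of 601 shared peaks (82.5%, 79.3 to 85.5%). Over 200 bp there were 14 members, 10 of them with an RH30 peak (71.4%, 41.9 to 91.6%), against 92.9% of 1752 shared peaks (91.6 to 94.0%). Members with an RH30 peak had a median width of 107 bp and those without one 89 bp.

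**Figure D3:**
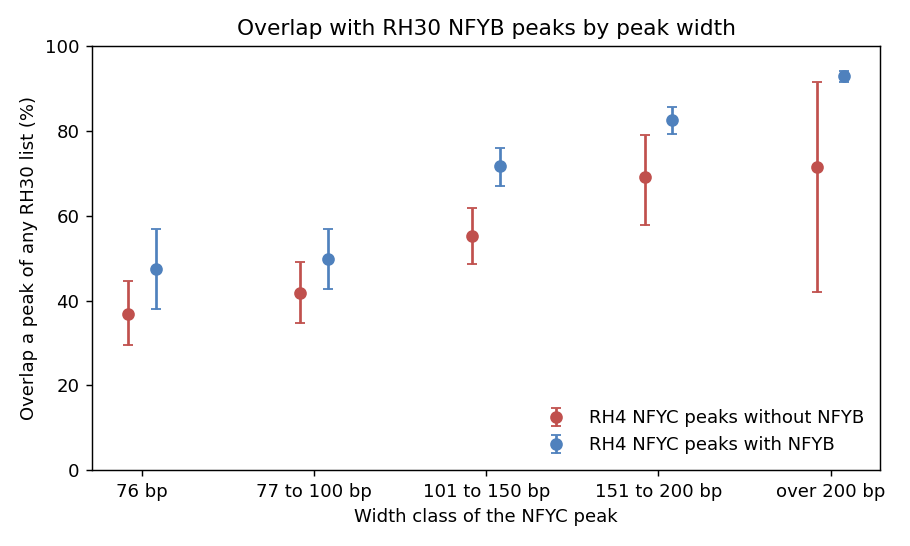
Percent of RH4 NFYC peaks that overlap a peak of any RH30 NFYB list (y axis) in 5 classes of peak width (x axis), without NFYB and with NFYB; error bars are exact 95% intervals. Both kinds climb with width, and the members lie lower in every class, with intervals that overlap below 101 bp and meet over 200 bp.

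The RH30 peaks over members stood later in their files than those over shared peaks. File order was read as an approximate rank, although the headers do not say that it is one. The median place was 78.6% of the way down the sgCCAAT2a list at 116 members and 39.0% at 1743 shared peaks. It was 79.5% against 38.6% with sgCCAAT2b, 58.0% against 28.6% with sgCtrl1, and 35.9% against 18.0% with sgCtrl2. With only the first 50% of each RH30 list, 32.5% of members (29.0 to 36.1%) and 79.0% of shared peaks (77.5 to 80.4%) still overlapped one. In the authors' deposited tables of peaks higher in sgCtrl2, 53.1% of the 256 sgCtrl2 peaks at members were listed over sgCCAAT2a, 55.1% over sgCCAAT2b and 5.47% over sgCtrl1. The same authors' deposited tables listed 61.9%, 60.7% and 36.2% of all 6687 sgCtrl2 peaks, and 43.3%, 34.3% and 1.38% of those at shared peaks. These 3 tables share the sgCtrl2 library and are not independent. The number is 256 and not 257 because a pair of members fell under the same sgCtrl2 peak.

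At genes, 393 members (57.0%, 53.2 to 60.7%) lay within 1000 bp of an end of a protein-coding gene, against 2378 shared peaks (77.5%, 75.9 to 78.9%) and 73.7% of all NFYC peaks. An end here is the outermost annotated base of a gene on either side, so a start inside the span is not one. Members away from gene ends numbered 297: 158 lay inside the span of a gene (22.9%, 19.8 to 26.2%) and 139 outside any (20.1%, 17.2 to 23.3%), against 13.2% and 9.32% of shared peaks. Of the 297, 255 (37.0% of all members, 33.3 to 40.7%) were away from both ends and starts, against 472 shared peaks (15.4%, 14.1 to 16.7%). Wholly inside a promoter window lay 30 members off gene ends (4.35%), against 2.93% of shared peaks. Within 1000 bp of an annotated start of a protein-coding gene lay 42 of the 297 (6.09% of all members), against 7.17% of shared peaks. Examples at such starts were the members at RUNX3, a Runt family transcription factor, centred 50 bp upstream, and at EPHA4, an ephrin receptor, centred 100 bp upstream, chosen after their values were seen. Also of the 297, 40 were at an end of a long non-coding RNA gene (5.80% of all members, against 5.90% of shared peaks). An RH30 peak lay over 49.4% (44.3 to 54.4%) of members at gene ends, 43.0% (35.2 to 51.1%) inside gene spans and 54.0% (45.3 to 62.4%) outside them, with overlapping intervals. At the narrowest width, 76 bp, 65.5% of members and 78.4% of shared peaks were at a gene end. Chromosome 19 held 109 members (15.8%) and 439 shared peaks (14.3%). The 5 widest members off gene ends, chosen after their values were seen, had no common pattern in RH30. Those at chr14:90828097-90828340 and chr16:31142247-31142483 had a peak in both control lists and in neither edited list. The one at chr16:84637037-84637238 had a peak in both edited lists and in neither control list. The one at chr7:25951160-25951350 had none, and the one at EPHA4, chr2:221572310-221572497, had one with sgCtrl2 only.

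Members at gene starts lay, like the NFYC peaks with NFYB, mostly a short way upstream. Within 1000 bp of an annotated start, the centres of 368 members (53.3% of all members, against 71.9% of shared peaks and 68.5% of all NFYC peaks) had a median of 85.5 bp upstream, with quartiles of 47.9 and 136.5 bp upstream. For 2206 shared peaks the median was 99.5 bp upstream, with quartiles of 52.0 and 163.0 bp. The centre lay upstream in 86.4% of these members and 87.9% of shared peaks. It lay within 150 bp upstream in 64.9% of the members and 59.3% of shared peaks. For 248 NFYB peaks without NFYC it lay upstream in 63.3% and within 150 bp upstream in 25.8%.

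**Figure D4:**
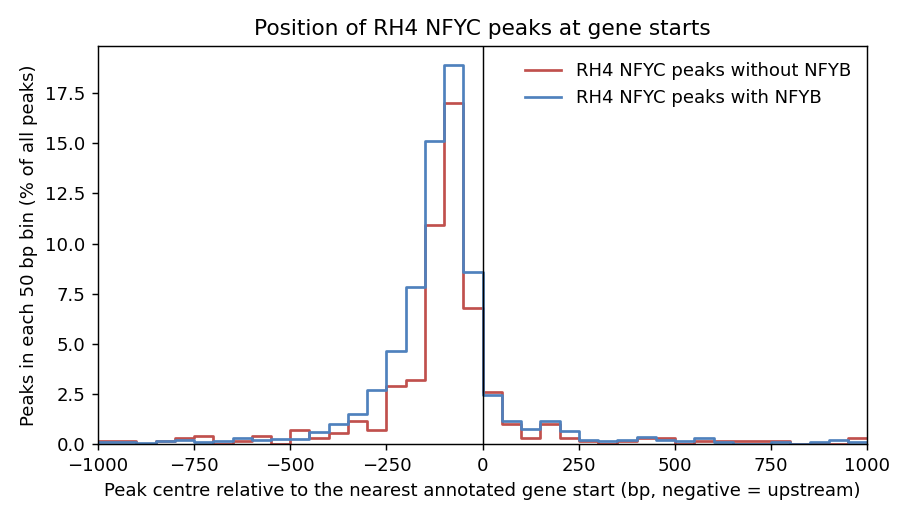
Percent of all peaks of each kind whose centre falls in each 50 bp bin around the nearest annotated start of a protein-coding gene (x axis, bp, negative upstream), for RH4 NFYC peaks without NFYB and with NFYB. Both peak between 50 and 100 bp upstream, where the bin holds 17.0% of members and 18.9% of shared peaks.

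The CCAAT letters could be read in 261 members that lay wholly inside a promoter window, which runs from 250 bases before to 50 bases after an annotated start in RefSeq. CCAAT on either strand was found in 154 of them (59.0%, 52.8 to 65.0%), in 785 of 880 shared peaks (89.2%, 87.0 to 91.2%) and in 82.3% of all NFYC peaks so placed. The same stretches read in all 22199 promoter windows of protein-coding genes held it in 18.4% on average for the members' stretches and 25.3% for those of the shared peaks, and the whole 300-base windows held it in 34.7%. By class of width the shares were as follows. At 76 bp, CCAAT was in 54.9% (42.7 to 66.8%) of 71 members and 51.2% (35.1 to 67.1%) of 41 shared peaks. From 77 to 100 bp it was in 47.0% (34.6 to 59.7%) of 66 members and 67.5% (56.1 to 77.6%) of 80 shared peaks, and from 101 to 150 bp in 67.7% (57.3 to 77.1%) of 93 members and 87.0% (81.3 to 91.5%) of 185 shared peaks. From 151 to 200 bp it was in 71.4% (51.3 to 86.8%) of 28 members and 92.9% (89.2 to 95.7%) of 268 shared peaks. Over 200 bp it was in 1 of 3 members and 98.0% of 306 shared peaks. Of the 154 members, the CCAAT nearest the centre lay at a median of 71 bp upstream of the start, with quartiles of 54 and 94 bp, against 79 bp in shared peaks, and at a median of 12.5 bp from the peak centre. The gene strand and the other strand were used about equally, in 84 and 85 of the 261. At least 2 copies were found in 35 members (13.4%) and 348 shared peaks (39.5%).

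CCAAT was more frequent in members that had an NFYB peak in RH30. It was found in 102 of 137 promoter members with an RH30 peak (74.5%, 66.3 to 81.5%) and in 52 of 124 without one (41.9%, 33.1 to 51.1%). The share was 41.9%, 61.3%, 80.0%, 85.7% and 92.3% of members with a peak in 0, 1, 2, 3 and 4 RH30 lists, from 124, 62, 35, 14 and 26 members. Shared peaks gave 67.5%, 77.4%, 91.9%, 99.1% and 98.8% in the same order. Members with no RH30 peak thus still held CCAAT above the 17.4% of the same stretches in all promoter windows. Seen from the other side, 66.2% (58.2 to 73.6%) of members with CCAAT and 32.7% (24.0 to 42.5%) of those without it had an RH30 peak. The stretches with an RH30 peak had a median length of 105 bp and those without one 91 bp. In the width class of 76 bp, 23 of 31 members with an RH30 peak held CCAAT (exact interval 55.4 to 88.1%), against 16 of 40 without one (24.9 to 56.7%). From 77 to 100 bp it was 18 of 30 (40.6 to 77.3%) against 13 of 36 (20.8 to 53.8%). From 101 to 150 bp it was 45 of 56 (67.6 to 89.8%) against 18 of 37 (31.9 to 65.6%), and from 151 to 200 bp 16 of 19 (60.4 to 96.6%) against 4 of 9 (13.7 to 78.8%). The share was higher with an RH30 peak in these 4 classes, with intervals apart only from 101 to 150 bp; over 200 bp only 3 members could be read. A match of letters is a description of the sequence and does not show that a site was bound.

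**Figure D5:**
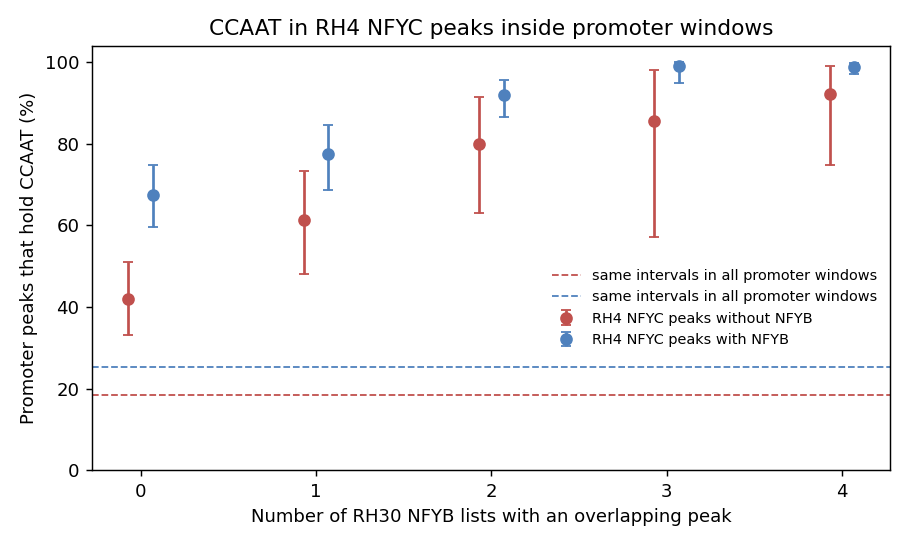
Percent of RH4 NFYC peaks wholly inside a promoter window that hold CCAAT on either strand (y axis), by the number of RH30 NFYB lists with an overlapping peak (x axis), without NFYB and with NFYB. Error bars are exact 95% intervals and dashed lines the mean share of the same stretches in all promoter windows, 18.4% and 25.3%; the members go from 41.9% with 0 lists to 92.3% with 4.

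A total of 448 protein-coding genes had a member at an end (2.24% of 20037). Of the 448, 53 also had a shared NFYC peak at an end and 395 did not. Shared peaks reached 2680 of the 20037 genes (13.4%), so most genes had none, with or without a member. FOXO1, a forkhead transcription factor and the second partner of the fusion oncogene, was among the 448, and PAX3 was not. The FOXO1 peak at chr13:40666617-40666762 was 146 bp wide and centred 48 bp upstream of the start. It overlapped an sgCtrl2 peak and none of the sgCtrl1, sgCCAAT2a and sgCCAAT2b lists, and the nearest RH4 NFYB peak was 1604752 bp away.

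In each list a gene was counted only when the peak lay at an end of it. The 42 members near an annotated start but off gene ends are thus left out. The counts are read against the 2.24% of all protein-coding genes with a member at an end and the 13.4% with a shared peak at an end. Of 20 genes of endoplasmic reticulum folding and stress 1, PDIA3, had a member (5.00%), against 17 with a shared peak (85.0%). Of 20 genes of the G2/M and S phases 1 had a member, PLK1, the mitotic polo kinase (5.00%), against 14 (70.0%). A single gene of 20 does not set these lists apart from all genes in their members. The PLK1 peak at chr16:23678761-23678836 was 76 bp wide and overlapped no RH30 peak; it held the CCAAT shown above. Cholesterol and fatty acid synthesis had 0 of 20 against 14, serine and one-carbon synthesis 0 of 10 against 7, and NF-Y subunits and partners 0 of 8 against 6. Heat shock genes had 0 of 14 against 2, myogenic genes 0 of 25 against 3, reported PAX3-FOXO1 targets 0 of 20 against 4, and cytosolic ribosomal protein genes 0 of 86 against 17. Mitochondrial ribosomal proteins had 1 of 77, MRPL28, against 12, and tRNA synthetases 2 of 34, LARS1 and WARS2, against 12. MRPL34, with a member centred 48 bp from an annotated start but off gene ends, was not counted. ZNF zinc finger genes had 22 of 517 (4.26%) against 117 (22.6%), both above the shares of all genes. The 22 count both ZNF559 and the joint entry ZNF559-ZNF177, which are named at the same member. The counts of the 2 kinds may not be independent, which was not tested, and no list was tested.

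Replication-dependent histone genes, which supply nucleosomes in S phase, had 6 of 69 with a member (8.70%) and 23 with a shared peak (33.3%), 3 of them with both, where all protein-coding genes gave 2.24% and 13.4%. The peak at H3C1, a histone H3 gene, was 106 bp wide, held 1 CCAAT and overlapped a peak of all 4 RH30 lists. The peak at H3C4, 176 bp wide with 2 copies of CCAAT, overlapped a peak of sgCCAAT2a, sgCCAAT2b and sgCtrl1 and not of sgCtrl2. H2AC16, with 3 copies, and H3C10, with 2, overlapped no RH30 peak, nor did the peak beside H2BC4 and H2AC6. Copies of CCAAT in a member and a peak in RH30 thus did not always go together. Histone genes of a kind code for near-identical proteins, and reads can be hard to place where their DNA is alike. How alike the stretches under these peaks are was not tested. The sources used here do not say how the authors placed such reads.

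The widest members at gene ends were at NIPAL3 (317 bp), MIER2 (311 bp), ZNF865 (295 bp) and the promoter shared by AP4M1, an adaptor subunit, and MCM7, a subunit of the replicative helicase (288 bp). They were followed by EP300, a histone acetyltransferase (246 bp), GNA11, a G protein alpha subunit (227 bp), FKBP8 (222 bp), ZNF559 (219 bp), MAN1B1, a mannosidase of the endoplasmic reticulum (219 bp), and HSPBP1, a co-chaperone of HSP70 (204 bp). Of these 10, FKBP8 alone had a peak in all 4 RH30 lists. AP4M1 with MCM7 had one in both controls, and MIER2, ZNF865, EP300 and ZNF559 had one with sgCtrl2 only. NIPAL3, GNA11, MAN1B1 and HSPBP1 had none. Not all of the wide members were far from NFYB: the peak at AP4M1 and MCM7 lay 379 bp and that at ZNF559 172 bp from an RH4 NFYB peak.

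Among members at gene ends, 32 had an NFYB peak in all 4 RH30 lists. Besides FKBP8, wide peaks of this group were at GPR89A (180 bp), GTF2IRD1 (159 bp), ZNF608 (156 bp) and FANCM, a DNA translocase of the Fanconi anaemia pathway (154 bp). Others were at the promoter of LANCL1, near CPS1 (154 bp), and at NICN1 (149 bp), BTN2A1 (149 bp) and PCBP2, an RNA-binding protein (142 bp). Of those named, 5 lay wholly inside a promoter window, at GPR89A, GTF2IRD1, ZNF608, FANCM and BTN2A1, and all 5 held CCAAT. The gap to the nearest RH4 NFYB peak was 319294 bp at GPR89A, 96896 bp at ZNF608 and 1074 bp at FANCM, whose peak at chr14:45135804-45135957 was centred 50 bp upstream of the start.

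Another 151 members at gene ends had no NFYB peak within 1000 bp in RH30 or RH4. Besides NIPAL3, GNA11, MAN1B1 and HSPBP1, wide peaks of this group were at ZC3H4 (193 bp), RNF157 (183 bp), RLIM, a ubiquitin ligase (171 bp), POLD1, the catalytic subunit of DNA polymerase delta (170 bp), and TP53RK, a kinase (169 bp). Of those named, 4 lay wholly inside a promoter window: GNA11 and RLIM held 1 CCAAT each, and MAN1B1 and POLD1 none. The RLIM peak at chrX:74614612-74614782 was centred 73 bp upstream of the start and the POLD1 peak at chr19:50384126-50384295 112 bp upstream.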

How the data were processed

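The 10 deposited files are peak lists and tables of peaks in bp on hg38, made by the authors; column 5, the score, is a constant of 1 in every deposited file, so no peak could be ranked by height. HOMER findPeaks made each RH30 list from 1 library, per the file headers, at 2-fold over an input and 4-fold over the local region. The headers name the same input for all 4 RH30 lists, so these lists are not independent. The differential tables used a fold of 2.5 and a Poisson p-value of 0.001. For RH4 the sources used here name no caller; the submitters' processing notes name MACS2, HOMER, Bowtie2 and other tools without roles. RH4 entries also carry other coordinates, on which the same count of members was found.

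Overlaps were computed in Python 3.11.15 and matched bedtools 2.31.1 in 60 of 60 counts on simulated lists. Genes were 20037 protein-coding RefSeq genes of GRCh38.p14; 15843 had promoter sequences, and chromosome 8 (14 members) was not used for sequence. CCAAT was searched on both strands, and the longer motif was CCAAT followed by C or G and then A or G. Intervals are exact Clopper-Pearson at 95% and cover counting error only. Members and gene lists were chosen with earlier results of these data known; the ribosomal list was corrected afterwards to drop genes that are not ribosomal proteins. Named genes were FOXO1 and PAX3, listed genes with a member, the 10 widest members at gene ends (among all, in all 4 RH30 lists, and with no NFYB peak within 1000 bp), and the 5 peaks at either side of the rule; histone genes were added after their values were seen. Some genes that this rule names are not reported here.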

Additional observations from a re-analysis of the deposited data

How the results depend on the processing

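Of 47 recomputed values, 19 stayed within the exact interval of the value reported, or within 1.5 times it for the number of members, and 28 did not. Counting an NFYB peak within 100 or 1000 bp as shared (662 and 627 members), using the other coordinates and leaving out alternate contigs moved no value beyond that. Requiring 50% of both peaks gave 2019 members with a median width of 123 bp, 68.9% at gene ends and 64.4% with an RH30 peak. An NFYC peak of less than 50% of the width of its NFYB peak cannot meet this, even wholly inside it. How much of the rise to 2019 comes from such unlike widths was not tested. With the wider 50% of the NFYB list there were 2005, at 133 bp, 66.3% and 68.2%. With the wider 50% of the NFYC list 17 remained, at 222 bp, 76.5% and 64.7%, against 92.4% with an RH30 peak among shared peaks of that part. The share at gene ends was 52.8% with a window of 500 bp and 64.3% with 3000 bp. The share with an RH30 peak was 55.8% within 1000 bp, 32.5% with the first 50% of each list, 28.3% in at least 2 lists, and 16.8%, 19.9%, 30.3% and 37.2% with sgCCAAT2a, sgCCAAT2b, sgCtrl1 and sgCtrl2 alone. Chosen after seeing the data, it was 35.1% without the sgCtrl2 list, and 36.8%, 41.7%, 55.2%, 69.1% and 71.4% in the width classes from 76 bp to over 200 bp. Also chosen after seeing the data, the longer motif was in 44.1% of promoter members, against 74.0% of shared peaks, and CCAAT in 63.6% of peaks widened by 25 bp either side. Each of these settings changes which peaks are counted; other causes were not tested. No paired analysis was possible because each antibody and guide has 1 library. Peak heights and the depth of the RH4 libraries, which limit what a missing call means, were not used here.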
